A study of Mus musculus with 17 samples.

Results

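The genes described here are 10 core genes of the Notch pathway, comprising the receptors Notch1, Notch2, Notch3 and Notch4, the ligands Jag1, Jag2, Dll1 and Dll4, and the target genes Hes1 and Hey1. They were taken by symbol from a count table of 23719 entries, in which all 10 were found. The study sequenced poly(A) RNA from the colon of 17 mice to ask how colonic gene expression differed weeks after an oral exposure that models Gulf War illness (GWI). All mice were male C57BL/6 animals aged 32 to 34 weeks. The 8 GWI mice drank water with pyridostigmine bromide, a cholinesterase inhibitor, at 2 mg/kg for 7 days and then recovered for 21 days, while the 9 Control mice drank plain water, and the endpoint was day 30. The exposure was to this single agent, so the model carries no other exposure of that war. Each library was taken as the colon of a separate mouse, and total counts ran from 16293537 to 20741212.

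Notch receptors are single-pass membrane proteins that bind Jagged or Delta-like ligands on a neighbouring cell. Ligand binding lets ADAM proteases and then the gamma-secretase complex cut the receptor, and the freed intracellular domain enters the nucleus, joins RBPJ and Mastermind proteins and switches on targets of the HES and HEY families. In the intestine the pathway is known for keeping crypt progenitors from becoming secretory cells, and in vessels for shaping endothelium and the smooth muscle and pericytes around it.

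The library labelled Control replicate 9 stood apart from the other Control libraries. Its count of Ifng was 9678, against 323 to 844 in the other 8 Control mice and 2377 to 9867 in the GWI mice. Such Ifng counts look unlike ordinary reads for colon, and their origin was not tested. Its 10 most abundant genes held 23.1% of its counts, against 9.72% to 17.3% in the other 16 libraries. Its summed markers of small intestine epithelium reached 2596 CPM (counts relative to TMM-scaled library size), against 1014 CPM as the Control median. Control replicates 7 and 6 followed at 1944 and 1341 CPM. Values without Control replicate 9 are therefore given beside the results of the members that it changed most. Control replicate 9 was also the highest of all libraries on the summed colon epithelium markers, at 33577 CPM. The next Control colon was at 20174 CPM and the highest GWI colon at 27487 CPM. Of the markers of the labelled tissue the most abundant was the colonic carbonic anhydrase Car1, at 12469 ± 7381 CPM in Control (SD, n = 9) and 11956 ± 5048 CPM in GWI (SD, n = 8).

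All 10 Notch genes passed the filter on low counts. Of these, 1 was called higher in GWI colons (Jag1) and 0 were called lower at an adjusted p under 0.05 in edgeR's quasi-likelihood test, where Benjamini-Hochberg adjustment ran over 14146 genes. In the same test 3792 genes were called, 26.8% of those tested, with 13.4% called higher and 13.5% called lower, so 1 of 10 members is not above this background. Jag1, Hes1 and Hey1 were the 3 members with an unadjusted p under 0.05. The fitted log2 fold change was above 0 for 6 of the 10 members, and its median was 0.12 against -0.056 over all tested genes. Without Control replicate 9 the test called 2 members, Jag1 higher and Hey1 lower. With upper-quartile factors the 1 called member was Hey1, lower (adjusted p = 0.0387), Jag1 had an adjusted p of 0.107, and calls over all genes split into 1214 higher and 2992 lower in place of 1889 and 1903.

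**Figure D1:**
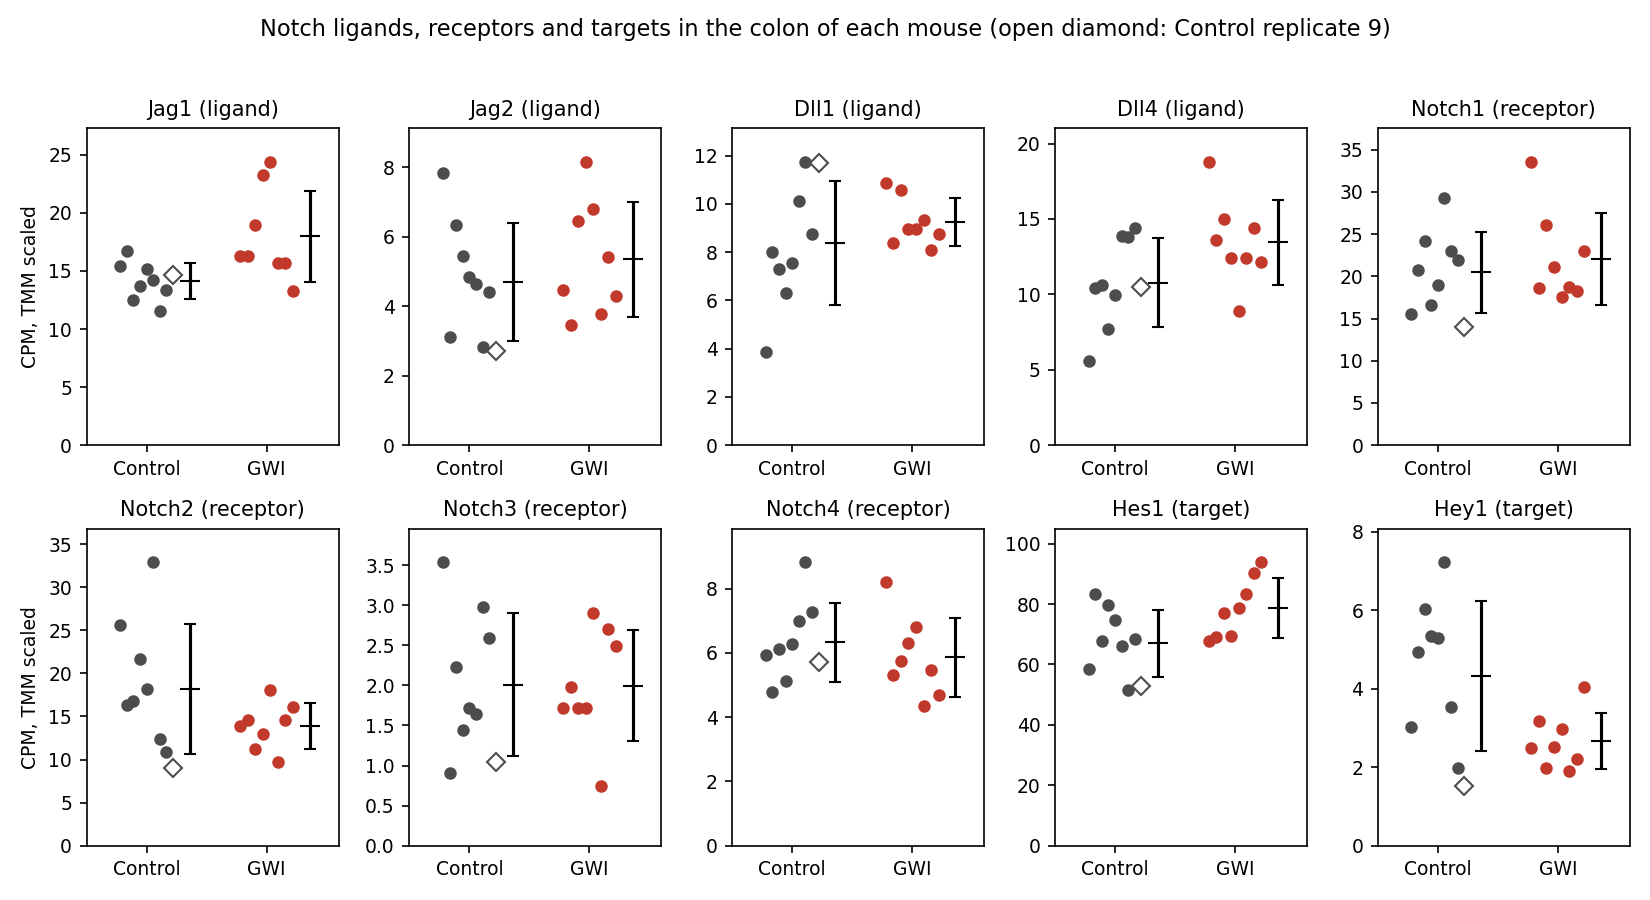
Level of each of the 10 Notch genes in each mouse, in CPM on TMM-scaled library sizes (vertical axes, each from 0), for 9 Control and 8 GWI colons; bars give the mean and SD and the open diamond is Control replicate 9. The groups overlapped for all 10 genes, and for Jag1 the 3 highest GWI colons lay above every Control colon.

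Among the ligands, Jag1 was the called gene. Jag1 encodes Jagged1, a ligand presented by signal-sending cells (chr2:137081456-137116644, minus strand, GRCm38). In Control colons its lowest, median and highest levels were 11.5, 14.2 and 16.7 CPM, and in GWI colons they were 13.3, 16.3 and 24.4 CPM. GWI replicates 3, 4 and 5 lay above every Control colon at 19.0, 23.2 and 24.4 CPM, while the other 5 GWI colons fell within the Control range. The means were 14.1 ± 1.58 CPM in Control (SD, n = 9) and 18.0 ± 3.92 CPM in GWI (SD, n = 8). The log2 fold change was 0.35 (SE 0.12, 95% interval 0.097 to 0.60), with an adjusted p of 0.0392 in edgeR's quasi-likelihood test. The call was kept without Control replicate 9, at 0.36 (SE 0.12, adjusted p = 0.0348). It was lost when any 1 of 8 mice was left out (Control replicates 3, 4, 6, 7 and 8 and GWI replicates 3, 4 and 5), with adjusted p from 0.0188 to 0.0896 over all 17 omissions, and it was lost in 7 of 12 other alternatives, with adjusted p from 0.0153 to 0.149.

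Dll4, a Delta-like ligand best known from endothelium and also made in crypts (chr2:119325784-119335962, plus strand), had lowest, median and highest levels of 5.55, 10.5 and 14.4 CPM in Control and 8.89, 13.0 and 18.8 CPM in GWI. GWI replicates 1, 3 and 7 lay above every Control colon, the last by a narrow margin, and the other 5 fell within the Control range. Its log2 fold change of 0.32 (SE 0.18, 95% interval -0.046 to 0.69) did not pass the edgeR quasi-likelihood test (adjusted p = 0.173). Dll1, a Delta-like ligand that overlaps in function with Dll4 in crypts (chr17:15367354-15376872, minus strand), ranged from 3.85 to 11.7 CPM in Control and from 8.10 to 10.9 CPM in GWI, so that every GWI colon lay inside the Control range. Its log2 fold change was 0.14 (SE 0.17, 95% interval -0.22 to 0.50, edgeR adjusted p = 0.551). Without Control replicate 9 it was 0.22. Jag2, the second Jagged ligand (chr12:112907819-112929776, minus strand), ranged from 2.72 to 7.82 CPM in Control and from 3.45 to 8.15 CPM in GWI, with a log2 fold change of 0.19 (SE 0.23, 95% interval -0.29 to 0.67, edgeR adjusted p = 0.547). The value of Jag2 was 0.13 without Control replicate 9. With limma-voom, which called 8091 of 14146 genes in place of 3792, Dll4 was called higher at 0.43 (adjusted p = 0.00711, within a range of 0.00711 to 0.459 over 12 alternatives) and so was Dll1 at 0.28 (adjusted p = 0.0380, within a range of 0.0380 to 0.943 over 12 alternatives). The fitted log2 fold changes of all 4 ligands were above 0 here, in the 12 alternatives and in the 17 fits that left out 1 mouse, but that of Jag1 alone passed the edgeR test as first run.

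None of the 4 receptors was called in the edgeR quasi-likelihood test, where 0 of them had an unadjusted p under 0.05. DESeq2 called 0 of them and limma-voom 1, Notch2, against 4615 and 8091 of all 14146 tested genes. Notch2 (chr3:98013527-98150361, plus strand) had lowest, median and highest levels of 8.99, 16.8 and 32.9 CPM in Control and 9.68, 14.2 and 18.1 CPM in GWI. The Control colons spanned a wider range than the GWI colons, with Control replicates 6 and 1 highest at 32.9 and 25.6 CPM and Control replicate 9 lowest. Its means were 18.2 ± 7.59 CPM in Control (SD, n = 9) and 13.9 ± 2.63 CPM in GWI (SD, n = 8), and the log2 fold change was -0.39 (SE 0.22, 95% interval -0.85 to 0.064) with an adjusted p of 0.180 in edgeR's quasi-likelihood test. Without Control replicate 9 it was -0.47 (SE 0.19, adjusted p = 0.0717), and without Control replicate 6, its highest mouse, -0.24 (SE 0.19, adjusted p = 0.368). With limma-voom Notch2 was called lower at -0.51 (adjusted p = 0.00600, within a range of 0.00600 to 0.483 over 12 alternatives).

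Notch1, the receptor that restrains secretory fate in crypts together with Notch2 (chr2:26457903-26516663, minus strand), ranged from 14.0 to 29.2 CPM in Control and from 17.6 to 33.6 CPM in GWI. GWI replicate 1 was the highest of the 17 mice and the other 7 GWI colons lay within the Control range. The log2 fold change was 0.11 (SE 0.16, 95% interval -0.22 to 0.43), with an adjusted p of 0.619 in the edgeR test. Without Control replicate 9 it was 0.063, and its sign turned without GWI replicate 1, at -0.0029. Notch4, a receptor of endothelium (chr17:34564268-34588503, plus strand), ranged from 4.77 to 8.82 CPM in Control and from 4.36 to 8.22 CPM in GWI, and its log2 fold change was -0.11 (SE 0.15, 95% interval -0.42 to 0.20, edgeR adjusted p = 0.585). Notch3, a receptor of vascular smooth muscle and pericytes (chr17:32120820-32166852, minus strand), had the lowest level, with 13 to 56 counts per mouse, and a log2 fold change of -0.013 (SE 0.29, 95% interval -0.61 to 0.59, edgeR adjusted p = 0.978). The sign of the Notch3 value was not settled, since it changed in 11 of the fits run. Without Control replicate 9 the value was -0.091.

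The fitted values of the 2 targets had opposite signs under each of the scalings run, and neither target was called in the edgeR test as first run. Hes1, the repressor through which Notch holds back secretory fate (chr16:30064384-30067796, plus strand), had lowest, median and highest levels of 51.4, 67.6 and 83.2 CPM in Control and 67.8, 77.9 and 93.8 CPM in GWI. GWI replicates 6, 7 and 8 lay above every Control colon, and the remaining 5 fell within the Control range. The means were 66.9 ± 11.2 CPM in Control (SD, n = 9) and 78.7 ± 9.87 CPM in GWI (SD, n = 8), and the log2 fold change was 0.23 (SE 0.11, 95% interval 0.011 to 0.45) with an adjusted p of 0.105 in edgeR's quasi-likelihood test.

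Hey1, a target known from endothelium and mesenchyme (chr3:8663359-8667256, minus strand), had lowest, median and highest levels of 1.53, 4.94 and 7.21 CPM in Control and 1.89, 2.51 and 4.04 CPM in GWI. Control replicates 8 and 9 were among the lowest of the 17 mice at 1.97 and 1.53 CPM, and Control replicates 2 to 6 lay above every GWI colon, so the ranges overlapped through the other 4 Control colons. The means were 4.32 ± 1.91 CPM in Control (SD, n = 9) and 2.66 ± 0.712 CPM in GWI (SD, n = 8). The log2 fold change was -0.70 (SE 0.27, 95% interval -1.27 to -0.13) with an adjusted p of 0.0608 in edgeR's quasi-likelihood test. Hey1 was called lower when Control replicate 9 was left out, at -0.80 (SE 0.23, adjusted p = 0.0167), and likewise without Control replicate 1 or 8 or GWI replicate 8, with adjusted p from 0.0167 to 0.119 over all 17 omissions. The DESeq2 Wald test also called it lower, at -0.71 (adjusted p = 0.0327, within a range of 0.000143 to 0.981 over 12 alternatives).

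Hey1 and Notch2 varied from mouse to mouse with the markers of the muscle coat and with those of several other cell types outside the epithelium. Of 10 smooth muscle markers, 7 were called lower in GWI and 0 higher, and their log2 fold changes had a median of -0.91. Their summed level was 3688, 11578 and 23899 CPM (lowest, median and highest) in Control and 3656, 5139 and 11824 CPM in GWI. The most abundant, the myosin heavy chain Myh11, was at 2959 ± 1972 CPM in Control (SD, n = 9) and 1378 ± 579 CPM in GWI (SD, n = 8), with Control replicates 6 and 1 highest for the summed markers, as for Notch2. No smooth muscle marker was at 0 in all mice. In whole colon, fewer cells of a type and less RNA per cell cannot be told apart.

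After each group's mean was removed, log2 CPM of Notch2 followed the mean of the smooth muscle markers over the 17 mice (r = 0.93, rho = 0.91), and Hey1 did so less closely (r = 0.78, rho = 0.76). Without the 2 mice farthest from the median of the markers, r was 0.89 for Notch2 and 0.61 for Hey1. Notch2 also followed the pericyte markers (r = 0.89, rho = 0.87) and the blood endothelium markers (r = 0.80, rho = 0.68). Its r was 0.71 with enteric glia, 0.70 with enteric neuron and 0.61 with macrophage markers. The list closest to Hey1 was enteric glia (r = 0.82, rho = 0.78), ahead of smooth muscle. Hey1 also followed the blood endothelium markers (r = 0.77, rho = 0.71), the pericyte markers (r = 0.73, rho = 0.77) and the macrophage markers (r = 0.70, rho = 0.63). These are descriptions over 17 libraries that share tissue makeup and depth within each mouse, taken from 100 pairs of a member and a marker list.

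**Figure D2:**
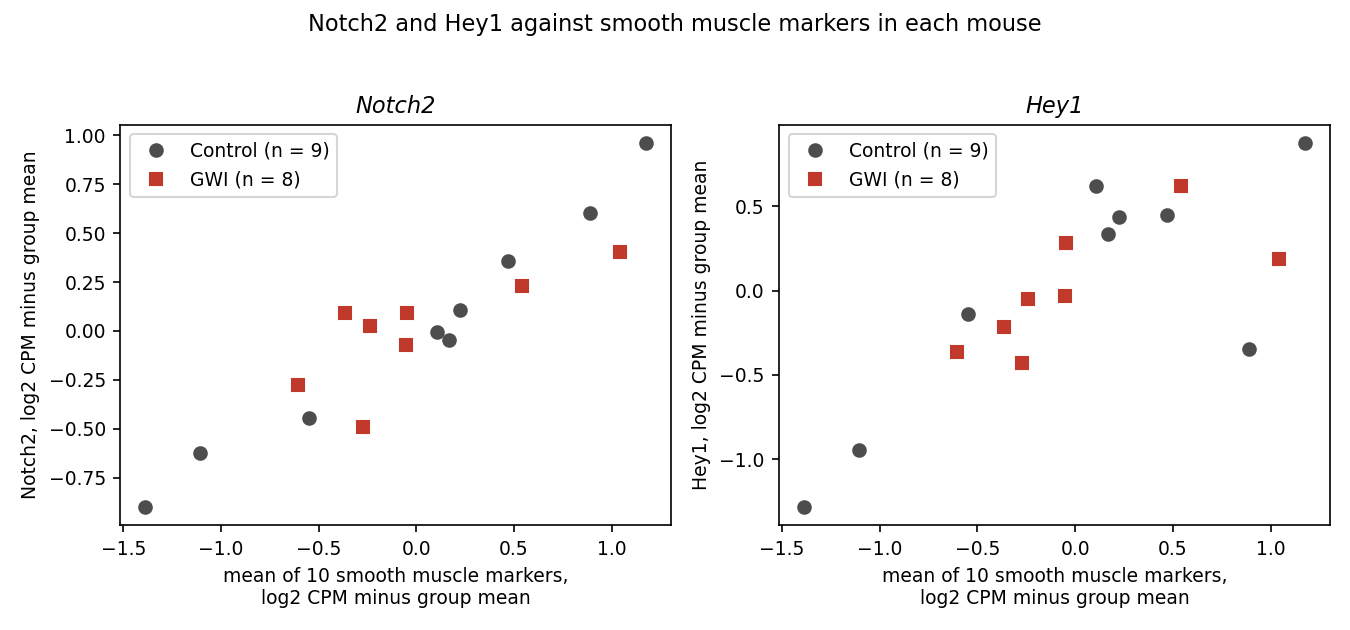
Log2 CPM of Notch2 (left) and Hey1 (right) minus the group mean, against the mean log2 CPM of 10 smooth muscle markers minus the group mean, for 9 Control (circles) and 8 GWI (squares) colons. Pearson's r was 0.93 for Notch2 and 0.78 for Hey1.

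With the difference between the smooth muscle and colon epithelium scores as a covariate, the fitted log2 fold change of Hey1 became 0.49 (SE 0.23, edgeR adjusted p = 0.128) and that of Notch2 0.39 (SE 0.23, edgeR adjusted p = 0.218), so both changed direction and neither was called. Jag1 had nearly the same log2 fold change with this covariate, 0.36 (SE 0.18), but a wider error and an edgeR adjusted p of 0.149. Vascular markers were called lower as well. Of 10 blood endothelium markers 5 were called lower and 0 higher (median log2 fold change -0.63), with Pecam1 most abundant and a summed level of 62.6, 142 and 220.4 CPM (lowest, median and highest) in Control and 63.2, 96.3 and 131 CPM in GWI. Of 6 tested pericyte markers 3 were called lower (median -0.55), with Rgs5 most abundant and a summed level of 549, 921 and 1933 CPM in Control and 313, 415 and 767 CPM in GWI. Of 10 colon epithelium markers 5 were called higher and 0 lower (median 0.36), with Car1 most abundant and summed levels of 11718, 16412 and 33577 CPM and 12806, 17630 and 27487 CPM. No marker of these lists was at 0 in all mice, and the part of tissue makeup in the levels of Hey1 and Notch2 was not tested.

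The Delta-like ligands varied with crypt markers and, inversely, with neuron and muscle markers. Dll4 and Dll1 followed the mean of 7 intestinal stem cell markers (r = 0.84, rho = 0.78 for Dll4 and r = 0.74, rho = 0.70 for Dll1, n = 17, each group's mean removed), and without the 2 mice farthest from the marker median r was 0.78 and 0.83. Of these 7 markers 0 were called by edgeR, 2 had an unadjusted p under 0.05, and DESeq2 called 1 and limma-voom 2 (median log2 fold change -0.15), with Slc12a2 the most abundant and summed levels of 301, 647 and 1613 CPM in Control and 454, 596 and 1002 CPM in GWI. Control replicate 9 was the highest and Control replicate 1, which had the lowest Dll1 and Dll4, was the lowest. Dll4 and Dll1 ran against the enteric neuron markers (r = -0.70, rho = -0.74 for Dll4 and r = -0.72, rho = -0.68 for Dll1), the colon epithelium markers (r = -0.70, rho = -0.50 for Dll4 and r = -0.60, rho = -0.34 for Dll1) and the smooth muscle markers (r = -0.52, rho = -0.53 for Dll4 and r = -0.52, rho = -0.46 for Dll1), and without the 2 mice farthest from the marker median r was -0.75 and -0.56 with neuron, -0.38 and -0.18 with colon epithelium and -0.87 and -0.63 with smooth muscle markers, so the relation to colon epithelium rested in large part on those mice. They also followed the small intestine markers, on which Control replicate 9 stood apart (r = 0.64, rho = 0.46 for Dll4 and r = 0.65, rho = 0.45 for Dll1; 0.57 and 0.51 without the 2 farthest mice). Notch1 (r = 0.66, rho = 0.73) and Notch4 (r = 0.67, rho = 0.50) also followed the stem cell markers, with r of 0.55 and 0.52 without the 2 farthest mice. Notch1 ran against the colon epithelium markers (r = -0.66, rho = -0.67, and r = -0.52 without the 2 farthest mice). Jag2 followed the enteric neuron markers (r = 0.73, rho = 0.76, n = 17). The closest lists for Jag1 were colon epithelium (r = 0.43, rho = 0.51) and goblet cells (r = 0.35, rho = 0.53).

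Among the 45 pairs of members, the 3 with the largest Pearson r in size were Dll1 and Dll4 (r = 0.78, rho = 0.60, n = 17, each group's mean removed), Notch2 and Hey1 (r = 0.75, rho = 0.67) and Notch1 and Dll4 (r = 0.70, rho = 0.69), of which the last had the largest rho. Without the 2 mice farthest from the median of the first-named gene, r was 0.55, 0.55 and 0.58. On the same terms r was -0.77 for Notch2 and Dll4 and -0.73 for Notch2 and Dll1, the largest in size of the 45, against -0.37 and -0.51 over all 17 mice. Of all tested genes, the 3 most like Notch2 were the actin cross-linker Flna (r = 0.96, rho = 0.93), Creb3l2 (r = 0.96, rho = 0.91) and Dysf (r = 0.96, rho = 0.94). Those most like Hey1 were Fam107a (r = 0.95, rho = 0.94), Islr (r = 0.94, rho = 0.92) and Igfbp5 (r = 0.94, rho = 0.90). The 2 most like Jag1 were Cttnbp2nl (r = 0.82, rho = 0.69) and Slc18b1 (r = 0.77, rho = 0.67), and both were themselves called higher in GWI by edgeR, at log2 fold changes of 0.44 and 0.43. The closest to the other members were Ntn4 for Dll1 (r = 0.95, rho = 0.94), Nxf7 for Dll4 (r = 0.93, rho = 0.88), Phldb3 for Jag2 (r = 0.91, rho = 0.92), Fbxo21 for Notch1 (r = 0.93, rho = 0.89), Thbd for Notch3 (r = 0.83, rho = 0.70), H2-Aa for Notch4 (r = 0.83, rho = 0.74) and Cisd3 for Hes1 (r = 0.89, rho = 0.87), each over 17 mice.

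Levels of the members were compared with each other per kilobase of exon (RPKM on TMM-scaled library sizes, mean ± SD over the 17 mice). Hes1 was the most abundant at 35.6 ± 5.85 RPKM, far above the others. Dll4 at 3.12 ± 0.813 and Jag1 at 2.74 ± 0.593 RPKM came next and differed by less than their spread, followed by Dll1 at 2.08 ± 0.468 RPKM. Notch2 at 1.498 ± 0.562, Notch1 at 1.49 ± 0.352 and Hey1 at 1.08 ± 0.510 RPKM overlapped, as did Notch4 at 0.758 ± 0.151 and Jag2 at 0.717 ± 0.238 RPKM. Notch3 was the lowest at 0.248 ± 0.0962 RPKM.

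Within the receptors, Notch1 and Notch2 together made up most of the RPKM in both groups. The share of Notch1 among the 4 receptors was 35.0% ± 5.72 in Control (SD, n = 9) and 40.7% ± 6.62 in GWI (SD, n = 8), and that of Notch2 was 39.5% ± 9.69 in Control (SD, n = 9) and 33.9% ± 5.19 in GWI (SD, n = 8). Both differences were within about 1 SD of the Control mice and were not tested. Notch4 held 19.5% and 19.0%, and Notch3 6.00% and 6.43%. Among the 4 ligands the share of Dll4 was 34.9% ± 5.94 in Control (SD, n = 9) and 36.7% ± 6.50 in GWI (SD, n = 8), that of Jag1 was 31.4% ± 6.34 in Control (SD, n = 9) and 32.3% ± 5.78 in GWI (SD, n = 8), and that of Dll1 was 24.7% ± 5.35 in Control (SD, n = 9) and 23.0% ± 1.93 in GWI (SD, n = 8). Jag2 held the smallest share, 8.98% ± 4.48 in Control (SD, n = 9) and 7.99% ± 2.03 in GWI (SD, n = 8). Each ligand share differed between groups by less than the SD of either group.

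Outside the 10 members, the pathway was followed through 48 further genes in 5 lists, of which 43 were tested, 11 were called higher in GWI and 5 lower by edgeR's quasi-likelihood test. These 16 of 43 stand beside 3792 of 14146 tested genes called, or 26.8% (13.4% higher and 13.5% lower). The median log2 fold change of the 43 was 0.059, against -0.056 over all tested genes. The count was 19, with 12 higher and 7 lower, without Control replicate 9, where all 16 calls were kept and the calls over all tested genes rose to 4493 of 14093. Dll3, Dlk1, Dlk2, Hes3 and Hes5 had too few counts and were not tested.

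Of 15 genes of receptor maturation and cleavage, the longest list, 6 were called higher and 1 lower (median log2 fold change 0.27). Furin, the protease that cuts Notch on its way to the membrane, had lowest, median and highest levels of 25.1, 50.3 and 68.3 CPM in Control and 71.7, 76.5 and 80.6 CPM in GWI, without overlap, and a log2 fold change of 0.63 (SE 0.14, 95% interval 0.34 to 0.91, edgeR adjusted p = 0.00444). The 2 ADAM proteases of the list were higher by smaller amounts, Adam10 at 0.28 (SE 0.082, 95% interval 0.11 to 0.45, edgeR adjusted p = 0.0178) and Adam17 at 0.33 (SE 0.089, 95% interval 0.14 to 0.51, edgeR adjusted p = 0.0136). Pofut1, which adds the O-fucose that ligand binding needs, was at 0.30 (SE 0.077, 95% interval 0.13 to 0.46, edgeR adjusted p = 0.0110). No fringe gene (Lfng, Mfng, Rfng) was called.

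In the nuclear complex 3 of 10 genes were called higher and 1 lower (median 0.0015). The coactivator Maml1 had lowest, median and highest levels of 13.4, 18.8 and 23.9 CPM in Control and 24.0, 25.4 and 32.4 CPM in GWI, with 8 of 8 GWI colons above every Control colon and a log2 fold change of 0.47 (SE 0.10, 95% interval 0.25 to 0.68, edgeR adjusted p = 0.00457). Its relative Maml2 was called lower, at -0.81 (SE 0.19, 95% interval -1.22 to -0.41, edgeR adjusted p = 0.00697). The corepressor Spen was higher at 0.61 (SE 0.14, 95% interval 0.31 to 0.92, edgeR adjusted p = 0.00654), and the acetyltransferase Ep300 at 0.32 (SE 0.096, 95% interval 0.12 to 0.53, edgeR adjusted p = 0.0198). Rbpj itself, the DNA-binding partner of Notch, was not called at -0.056 (SE 0.10, 95% interval -0.27 to 0.16, edgeR adjusted p = 0.696).

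Of 5 tested HES and HEY factors beyond the members, 1 was called higher and 2 lower (median -0.27). Hey2, a relative of Hey1, was lower with a log2 fold change of -1.07 (SE 0.27, 95% interval -1.65 to -0.50, edgeR adjusted p = 0.0102), in the same direction as the fitted value of Hey1, and 5 of 8 GWI colons were below every Control colon. Hes2 was higher at 0.82 (SE 0.21, 95% interval 0.37 to 1.27, edgeR adjusted p = 0.0111), in the direction of the fitted value of Hes1. Of 9 tested inhibitors and turnover genes 1 was called higher and 1 lower, the latter being Numbl at -0.97 (SE 0.28, 95% interval -1.57 to -0.37, edgeR adjusted p = 0.0190), and of 4 tested ligand maturation genes 0 were called (1 had an unadjusted edgeR p under 0.05, and DESeq2 called 0 and limma-voom 1). Given here after their values were seen, 4 further called genes were Ncstn (0.53), Nrarp (0.50), Aph1c (-0.60) and Heyl (-0.87) on the log2 fold change scale. Ncstn lost its call without GWI replicate 3 or 7 (adjusted p up to 0.0515 in edgeR), Nrarp without GWI replicate 2, 3, 4 or 6 (up to 0.0673), and Heyl in 11 of 17 omissions (up to 0.0920), all but those of Control replicates 2, 7, 8 and 9 and GWI replicates 5 and 8. With the muscle against epithelium covariate Furin, Pofut1, Ncstn, Maml1 and Spen kept their calls, while 10 others lost theirs. The log2 fold change became -0.029 for Hey2 (edgeR adjusted p = 0.936), 0.063 for Adam10 (0.630) and 0.10 for Adam17 (0.498). Those of Nrarp, Hes2, Ep300, Maml2 and Aph1c kept their sign at 0.17, 0.47, 0.38, -0.36 and -0.30, and those of Numbl (0.061) and Heyl (0.24) changed direction. Furin, Maml1 and Spen were called in all 12 alternatives. Upper-quartile factors ended the calls of Adam10 (adjusted p = 0.0577 in edgeR), Pofut1 (0.0741), Ncstn (0.0643), Ep300 (0.0633) and Nrarp (0.0665), library size alone those of Pofut1 (0.0527), Ncstn (0.0680) and Heyl (0.0552), and the fit without a filter that of Heyl (0.0603). The replicate block ended those of Pofut1, Aph1c, Maml2, Heyl, Numbl and Nrarp (adjusted p from 0.0523 to 0.0919), and the endothelium covariate those of Adam10, Adam17, Aph1c, Maml2, Hes2, Hey2, Heyl, Numbl and Nrarp (adjusted p from 0.0579 to 0.708). Aph1c was called in 8 of the 12 alternatives, so not every loss of its call is named here. Adam17, Ncstn and Spen share exon bases with a gene on the other strand that was also counted, and the strand setting of the counting is not given in the sources used here.

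**Figure D3:**
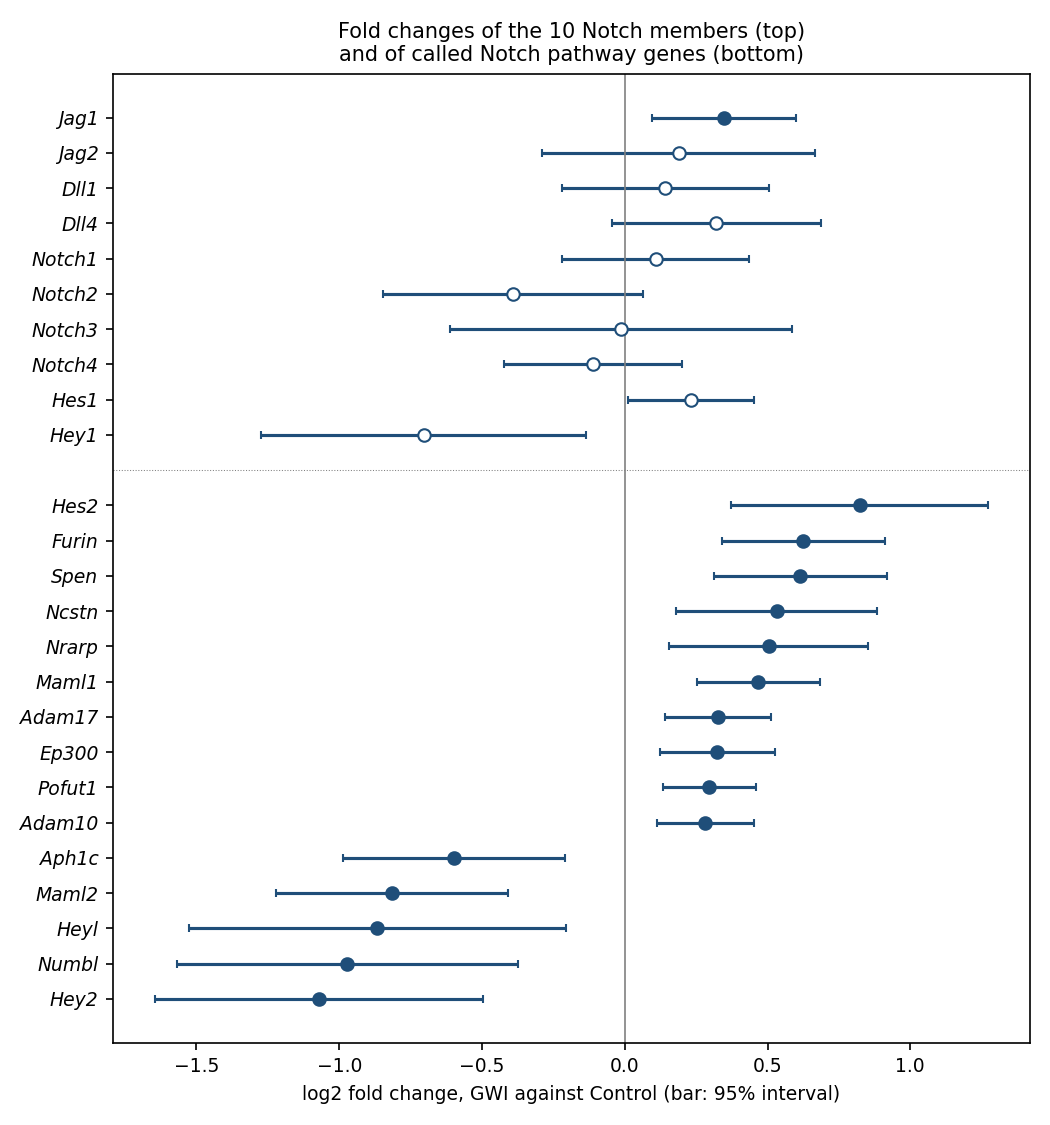
Log2 fold change of GWI against Control (horizontal axis; points with 95% intervals, 9 Control and 8 GWI mice) for the 10 Notch members and for the called pathway genes beyond them that are named in the text; filled points are called at an adjusted p under 0.05 in edgeR. Jag1 is the filled member, and with upper-quartile factors Jag1 lost its call and Hey1 gained one.

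Secretory fate factors, which include genes that HES repressors hold down in the intestine, were read beside the targets. Of 5 such genes 0 were called by edgeR and 0 by DESeq2, 2 were called by limma-voom, and 1 had an unadjusted edgeR p under 0.05. Atoh1, the master factor of secretory cells, was at 55.5 ± 26.4 CPM in Control (SD, n = 9) and 83.2 ± 23.4 CPM in GWI (SD, n = 8), with a log2 fold change of 0.58 (SE 0.26, 95% interval 0.039 to 1.13) and an adjusted p of 0.0989 in the edgeR test. Sox9, Spdef, Gfi1 and Neurog3 had log2 fold changes from -0.15 to 0.26.

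The members' promoters were searched for TGGGAA, the core of the site bound by RBPJ, on both strands of the 250 bases before each start in the RefSeq table for GRCm38.p6. The table held 9 promoters of 8 members (all but Hes1 and Hey1), and 0 of the 9 held the motif, against 21.6% of 32851 promoters of this length. The promoter of the called HEY factor Hey2 held 1 copy, on the minus strand relative to the gene, with 201 bases between it and the start. Hey2 was the only called HES or HEY factor with a promoter in that table. Of the relatives not called or not tested that were searched too, Hes5 held 2 copies, Hes7 held 1 and Hes6 held 0. The Hey2 promoter is shown by a choice made after its values were seen (chr10:30842784-30843033, minus strand, 5′ to 3′, with the reverse complement of the motif in capitals).
Hey2: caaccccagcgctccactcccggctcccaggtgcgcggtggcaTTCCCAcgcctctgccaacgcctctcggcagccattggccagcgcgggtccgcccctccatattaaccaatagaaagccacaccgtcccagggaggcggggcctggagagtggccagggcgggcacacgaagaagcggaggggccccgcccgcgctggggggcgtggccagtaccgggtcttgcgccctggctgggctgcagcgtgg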

How the data were processed

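Colon RNA from 17 mice (9 Control, 8 GWI) was measured by poly(A)-selected, 150-bp paired-end RNA-seq. After trimming (Trimmomatic 0.36) and mapping to GRCm38 (STAR 2.5.2b), the authors deposited raw counts of unique hits per gene symbol, made with featureCounts. The annotation release is not given in the sources used here. The table opens with 3 entries out of its alphabetical order (Il4, Il6 and Chat), which are not reported here.

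Counts were filtered with filterByExpr (14146 of 23719 entries kept), scaled by TMM and fitted with edgeR 4.0.16 (R 4.3.3) in a model of condition only, with robust quasi-likelihood tests and Benjamini-Hochberg adjustment over all tested genes. A gene was called at an adjusted p under 0.05. SEs were derived from the test's F statistic. CPM used TMM-scaled library sizes, RPKM the union exon length in GENCODE M21, and correlations log2 CPM with a prior count of 2, centred within groups. Alternatives used DESeq2 1.42.0, limma 3.58.1 (voom with quality weights), other scalings, filters and thresholds, the replicate number as a block, 2 tissue scores as covariates, and each mouse left out. Replicates were taken as separate mice, which the labels do not state, as they give only a group and a replicate number. Some library names share a stem, and its meaning is not given. No 2 libraries of a group agreed within sampling noise. That shows that none was a copy of another, but cannot tell pieces of the same mouse or cage-mates from unrelated mice. The members and the lists were chosen with earlier results of these data known. All members were named. Of the other pathway genes and secretory fate factors most called ones were named, with marker genes from the 2 most abundant of each list and, of the genes most correlated with each member, the closest 3 for Notch2 and Hey1, 2 for Jag1 and 1 for the others. Genes given as not called were named to complete a family.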

Additional observations from a re-analysis of the deposited data

Results flagged for a closer look

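The members, 12 pathway genes and the summed marker lists, each in Control and in GWI, gave 64 groups of values. These were searched for a single mouse far from the others, and 6 were found, while chance flags about 1 in 20 groups. No Notch receptor, ligand or target of the 10 was among them. Maml1 in GWI replicate 7 was at 32.4 CPM, with the next GWI colon at 27.5 CPM. Hey2 in GWI replicate 8 was at 4.63 CPM, with the next at 2.84 CPM. Adam10 in Control replicate 9 was at 164 CPM, with the next Control colon at 125 CPM. The summed pericyte markers in Control replicate 6 were at 1933 CPM (next 1178), the summed colon epithelium markers in Control replicate 9 at 33577 CPM (next 20174), and the summed goblet cell markers in Control replicate 1 at 21054 CPM (next 16195).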

How the results depend on the processing

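The number of members called, 1 as reported, was 0 with library size alone, 0 without a filter, 0 and 0 with the muscle against epithelium and the endothelium score as covariates, 2 with DESeq2, 5 with limma-voom, 2 at an adjusted p under 0.1 and 0 at an unadjusted p under 0.05 with an absolute log2 fold change over 1. The other pathway genes called, 16 as reported, were 26 with limma-voom and 1 at the last threshold, and all genes called, 3792 as reported, were 8091 and 342. With the replicate block over 16 mice the counts were 0, 10 and 2218. The numbers did not pair the mice, since same-numbered mice correlated between -0.51 and 0.11 and 0 of 8 GWI mice correlated best with their own number. Leaving out 1 mouse gave 0 to 2 members, 13 to 19 other pathway genes and 2781 to 4818 genes in all. Without Control replicates 6, 7 and 9, chosen after seeing the data, 1 member was called, Hey1 lower. Log2 fold changes changed sign for Notch2 (0.39 and 0.18 with the muscle and endothelium covariates), Notch3 (0.028 with limma-voom, 0.16 and 0.40 with the covariates), Hey1 (0.49), Numbl (0.061) and Heyl (0.24) with the muscle covariate. With 1 mouse left out they ran from -0.0029 to 0.19 for Notch1, -0.11 to 0.14 for Notch3, -0.20 to -0.040 for Notch4, 0.078 to 0.32 for Jag2 and 0.060 to 0.22 for Dll1. Over the 12 alternatives Jag2 ran from 0.013 to 0.51, Notch1 from 0.014 to 0.46 and Dll1 from 0.028 to 0.41. Notch4 ran from -0.21 to -0.0064 and Hes1 from 0.091 to 0.38 over the same alternatives. The cause was not tested in these cases. Over the refits of 26 genes, 661 values kept their direction and side of the threshold, 65 lost a call, 11 gained one and 17 changed sign. Differences between the groups in the shares of receptors and ligands changed by less than 1 SD of the Control mice with CPM not divided by length and with each mouse left out, while some shares themselves moved by more without division by length (Notch1 in Control from 35.0% to 44.0%). Depth limits Notch3 most, at 13 to 56 counts per mouse.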

Other observations

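Other cell type lists were read beside the Notch genes. Of 7 goblet cell markers 1 was called higher by edgeR, the mucin Muc2 (log2 fold change 0.51, SE 0.18, edgeR adjusted p = 0.0465), and the list's median was 0.025. Of 6 tested enteric glia markers 1 was called higher and 2 lower (median -0.86). The higher one was Erbb3, a receptor also made by epithelium, at 209.5 ± 65.6 CPM in Control (SD, n = 9) and 395 ± 39.1 CPM in GWI (SD, n = 8), with a log2 fold change of 0.91. Of 9 enteric neuron markers 0 were called by edgeR, 0 had an unadjusted p under 0.05, and DESeq2 called 0 and limma-voom 8 (median -0.58), of 8 macrophage markers 1 was called lower, Mrc1 (median -0.35), and of 6 tested small intestine markers 1 was called higher and 2 lower (median -0.55).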
